A study of Mus musculus with 167 samples.

Results

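The growth hormone and IGF1 axis was read in mouse liver through 8 genes: Ghr, Stat5b, Igf1, Igfals, Socs2, Cish, Bcl6 and Cux2. They were taken by gene symbol from a liver RNA-seq table of 39179 gene identifiers, all 8 were found, and all 8 passed the filter on low counts in every fit. The study sequenced polyA RNA from the livers of C57BL/6 mice that carry, in 1 of their Htt alleles, a knock-in CAG repeat named for its length. The heterozygous lines were Q80, Q92, Q111, Q140 and Q175, the heterozygous short-repeat line was Q20, and the wild-type (WT) animals were littermates that shared cages with the Q20 animals. Livers were collected at 2, 6 and 10 months of age, which gave 21 groups and 167 libraries, 83 from females and 84 from males as labelled. Each group held 8 libraries except Q80 at 10 months, which held 7. Every library comes from whole liver, so fewer cells of a type and less RNA per cell cannot be told apart. The labels give each library as a separate sample, and p-values measure the spread between these samples.

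Growth hormone is released by the pituitary in a pattern that differs between male and female mice. In hepatocytes it binds the growth hormone receptor, Ghr, and the receptor-bound kinase JAK2 activates the transcription factor STAT5B, which drives Igf1, Igfals, Socs2 and Cish. IGF1 is the circulating growth factor of the liver, IGFALS is the acid-labile subunit that carries it in a ternary complex with a binding protein, and SOCS2 and CIS (the product of Cish) are feedback inhibitors of cytokine receptor signalling. BCL6 is a transcriptional repressor that binds many STAT5 sites in mouse liver, and CUX2 is a repressor known for its female-biased expression there.

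STAT5 dimers bind the palindrome TTCNNNGAA, and the promoters of the members were searched for it in RefSeq sequence of build GRCm38.p6. The table held 13 start sites of 7 members, all but Socs2. In the 250 bases before the start, 4 of the 13 start sites held the motif, against 7.02% of 32851 promoters in the table, and because the motif is its own reverse complement both strands give the same matches. The second annotated start of Bcl6 held 3 copies, at bases -168, -122 and -88 from the start, a number reached by 9 promoters of the table or 0.0274%. Igfals held TTCTCAGAA at base -236 of its first start and TTCCTAGAA at base -58 of its second, and the first start of Bcl6 held TTCTCAGAA at base -118. No match lay before the annotated starts of Ghr, Igf1, Stat5b, Cish or Cux2. Cish held 2 copies directly after its start, at bases 1 and 12, in a window of 50 bases that was searched only after the data had been seen. Such a pair after the start was held by 4 promoters, or 0.0122%. The pair of sequences is shown because Cish and Bcl6 are the members whose levels moved most tightly together, with opposite signs, and capitals mark each TTCNNNGAA match, 5′ to 3′ on the gene's strand.
Bcl6, 250 bases before the second start, chr16:23981284-23981533, minus strand: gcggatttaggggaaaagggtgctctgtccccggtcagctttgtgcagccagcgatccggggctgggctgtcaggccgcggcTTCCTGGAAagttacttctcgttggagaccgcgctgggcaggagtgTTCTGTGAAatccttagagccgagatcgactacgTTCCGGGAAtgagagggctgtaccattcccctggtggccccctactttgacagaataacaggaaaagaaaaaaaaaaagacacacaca
Cish, the first 20 bases from the start, chr9:107296659-107296678, plus strand: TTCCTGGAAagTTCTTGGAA

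In GENCODE M21 coordinates of GRCm38 all members are protein-coding genes. Ghr (ENSMUSG00000055737) spans chr15:3317760-3583492 on the minus strand, Stat5b (ENSMUSG00000020919) chr11:100780731-100850724 on the minus strand, Igf1 (ENSMUSG00000020053) chr10:87858265-87937042 on the plus strand and Igfals (ENSMUSG00000046070) chr17:24865997-24882010 on the plus strand. Socs2 (ENSMUSG00000020027) spans chr10:95385362-95417180 on the minus strand and Cish (ENSMUSG00000032578) chr9:107296026-107302784 on the plus strand. Bcl6 (ENSMUSG00000022508) spans chr16:23965052-23988852 on the minus strand and Cux2 (ENSMUSG00000042589) chr5:121856366-122050102 on the minus strand. The values are counts per gene, over all its exons.

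The libraries held 32025244 to 57151736 expected counts, with a median of 38663519. All 6 hepatocyte markers, Alb, Apoa1, Ttr, Tat, Cps1 and Serpina1c, had counts in all 167 libraries, with a median of 75000 CPM (counts scaled to a common library size) for Alb, and the pituitary hormone genes Gh and Prl had counts in 8 and 2 libraries, with at most 0.0307 CPM. Htt, the targeted gene, fell with repeat length at each age, with a log2 change per 100 repeats of -0.27 ± 0.04 at 2 months, -0.39 ± 0.04 at 6 months and -0.42 ± 0.05 at 10 months (SE, edgeR adjusted p 0.00061, 1.5e-07 and 8.4e-07). At 6 months the knock-in libraries carry another name style than the WT libraries and than the other ages, so name style and genotype cannot be told apart in a comparison with WT at that age.

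A single library stood apart from its sex label. The library labelled Q80 male replicate 5 at 2 months had 0 CPM of 4 genes of the Y chromosome (Ddx3y, Eif2s3y, Kdm5d, Uty), while the other 83 males had 51.7 to 125.2 CPM of Ddx3y. Its Xist, the X-inactivation RNA of cells with more than a single X chromosome, was 0.515 CPM, within the 0.035 to 2.22 CPM of the other males and below the 323.6 to 998.0 CPM of the females. Its female-biased cytochrome gene Cyp2b9 was 582.7 CPM, within the female range of 272.2 to 744.3 CPM and above the highest other male at 13.04 CPM. Its male-biased steroid enzyme gene Hsd3b5 was 1.003 CPM, against 82.6 to 301.5 CPM in the other males. The library was kept as labelled. Leaving it out changed calls or values of Cux2, the nearest genes of some members and some list counts. These, and a few further values, are given without it where they stand. Other values include it.

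On the scale of FPKM, in which fragments are scaled by gene length and library size, Igf1 and Ghr were the most abundant members, with medians over all libraries of 232.0 and 172.8 FPKM. Igfals followed with 41.0 FPKM, Stat5b with 11.7, Socs2 with 8.14, Cish with 5.33 and Bcl6 with 4.36 FPKM. Cux2 had a median of 11.9 FPKM in females and 0.06 FPKM in males. The receptor and the growth factor genes were steady between livers, and the feedback and repressor genes were not. Over the libraries of a sex the coefficient of variation of Ghr in FPKM was 8.17% in females and 9.11% in males, while that of Cish was 43.1% in females and 119.9% in males, that of Socs2 44.5% in females and 78.2% in males, and that of Bcl6 60.0% in females and 60.5% in males. Cish spanned 7.96-fold in CPM over the females, from 8.56 to 68.2 CPM, and 54.9-fold over the males, from 1.45 to 79.7 CPM.

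**Figure D1:**
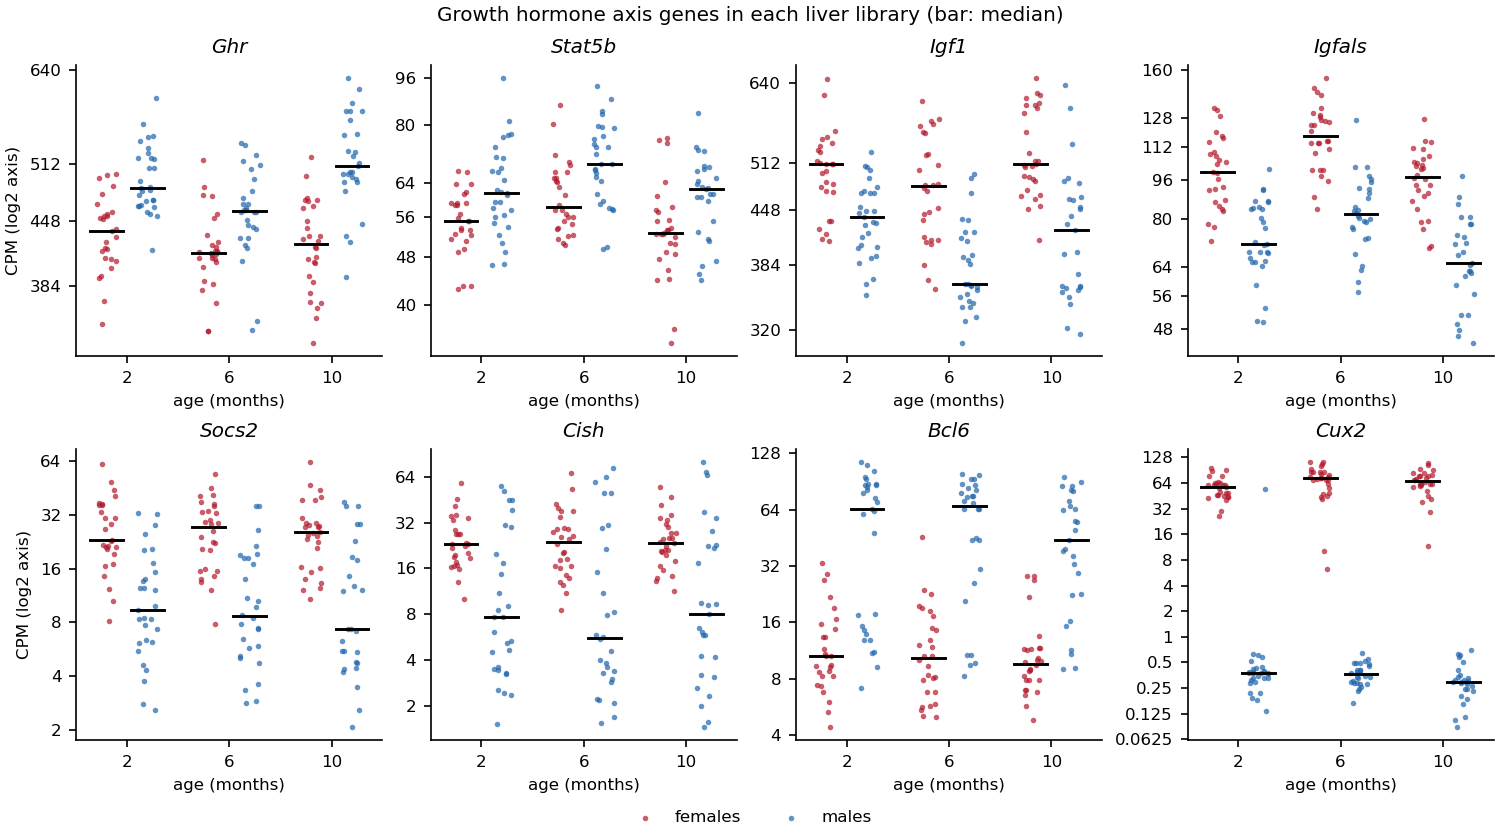
Level of each member in every library by age (CPM, log2 axis), with females in red on the left, males in blue on the right and black bars at the medians. Cux2 separates the sexes except for the Q80 library labelled M5 at 2 months (55.1 CPM), Bcl6 is lower in most females than in most males, and Cish in males runs from 1.45 to 79.7 CPM.

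With edgeR all 8 members differed between the sexes at 2 and 10 months, in opposite directions within the axis. In log2 FPKM Stat5b was called at no age and Ghr was not called at 6 months, as given below. Females had more Cux2, Socs2, Cish, Igfals and Igf1 and less Bcl6, Ghr and Stat5b than males. Past an adjusted p of 0.05 (edgeR's quasi-likelihood test with genotype as a covariate, p adjusted by Benjamini and Hochberg's method over all tested genes) were 8 of 8 members at 2 months, 7 at 6 months and 8 at 10 months. Between the sexes 57.2% of all genes tested were called at 2 months, 60.4% at 6 months and 56.6% at 10 months, so the number of members called is set against a high background. The median log2 fold change of females over males across the 8 members was 0.33, 0.42 and 0.44 at 2, 6 and 10 months, against 0.011, 0.008 and 0.023 over all genes.

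Ghr, which starts the pathway, was modestly lower in females. The lowest, median and highest library had 350.5, 437.2 and 500.5 CPM in females and 417.5, 484.6 and 599.3 CPM in males at 2 months, where the lowest male was the library M5 of Q80 and the next stood at 452.5 CPM. At 6 months they had 344.5, 415.4 and 517.8 CPM in females and 345.4, 458.5 and 539.1 CPM in males. At 10 months they had 335.2, 423.9 and 520.7 CPM in females and 392.3, 509.7 and 627.8 CPM in males. The sexes overlapped at each age. The log2 fold change of females over males in Ghr was -0.19 ± 0.03, -0.13 ± 0.03 and -0.28 ± 0.04 at 2, 6 and 10 months (SE, adjusted p 1.4e-06, 0.00033 and 1.6e-07). Stat5b, the signal transducer, had medians of 55.3, 58.3 and 52.7 CPM in females and 61.5, 68.9 and 62.4 CPM in males at 2, 6 and 10 months, with overlapping ranges. Its log2 fold change was -0.18 ± 0.05, -0.19 ± 0.05 and -0.18 ± 0.06 (adjusted p 0.0037, 0.0004 and 0.005). In log2 FPKM, where the median of all genes lies 0.122 higher at 6 months and 0.150 at 10 months, the Ghr difference at 6 months was 0.01 (limma adjusted p 0.78) and the Stat5b differences were -0.09, -0.05 and -0.02 with no call.

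The secreted products went the other way. Igf1 had 411.1, 509.9 and 648.7 CPM (lowest, median, highest) in females and 352.7, 439.9 and 527.6 CPM in males at 2 months. It had 358.8, 479.1 and 609.5 CPM in females and 308.6, 363.9 and 496.6 CPM in males at 6 months. At 10 months Igf1 had 412.7, 509.8 and 649.0 CPM in females and 316.3, 424.4 and 638.0 CPM in males, so that the medians stood apart and the ranges overlapped at all 3 ages. At 2, 6 and 10 months the log2 fold change of Igf1 was 0.20 ± 0.04, 0.32 ± 0.04 and 0.33 ± 0.06 (adjusted p 3.2e-05, 1.4e-09 and 3.3e-06), a fold of 1.15 to 1.25. Igfals had medians of 99.4, 117.7 and 97.3 CPM in females and 71.2, 81.7 and 65.3 CPM in males. Its difference was larger than that of Igf1 at each age, 0.45 ± 0.07, 0.51 ± 0.06 and 0.56 ± 0.06 on the log2 scale (adjusted p 4.7e-08, 3e-10 and 9.1e-11), although its ranges overlapped too, with 70.0 to 153.7 CPM in females and 44.9 to 126.6 CPM in males over all ages.

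The feedback inhibitors were higher and less scattered in females. Socs2 had 8.12, 23.0 and 61.7 CPM in females and 2.60, 9.45 and 32.9 CPM in males at 2 months, and 7.85, 27.3 and 53.9 CPM in females against 2.85, 8.64 and 36.0 CPM in males at 6 months. At 10 months it had 10.8, 25.6 and 62.9 CPM in females and 2.09, 7.35 and 37.8 CPM in males. The ranges overlapped, and the log2 fold change was 1.22 ± 0.23, 1.25 ± 0.22 and 1.21 ± 0.26 (adjusted p 8e-06, 2.3e-06 and 8.8e-05), or 2.32 to 2.38 times. Cish had medians of 23.0, 23.9 and 23.6 CPM in females and 7.61, 5.58 and 8.04 CPM in males, while the highest library was a female with 58.1 CPM at 2 months against a male with 55.4 CPM, and at 6 and 10 months the highest males (73.5 and 79.7 CPM) lay above the highest females (68.2 and 55.1 CPM). The log2 fold change of Cish was 0.90 ± 0.31 at 2 months (adjusted p 0.011), 0.77 ± 0.38 at 6 months (0.075, the member not called) and 0.90 ± 0.34 at 10 months (0.020). At 6 months DESeq2 gave 0.79 (adjusted p 0.042) and limma on log2(FPKM + 0.1) gave 1.60 (6.3e-05), and at 10 months the call was lost without the libraries with more than 10 CPM of the bile duct gene Krt19 (0.77, adjusted p 0.058).

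The repressors were the most sex-biased members. Bcl6 had 4.43, 10.6 and 33.3 CPM in females and 7.16, 64.2 and 114.7 CPM in males at 2 months, and 5.01, 10.3 and 46.0 CPM in females against 8.27, 66.9 and 99.0 CPM in males at 6 months. At 10 months it had 4.78, 9.63 and 28.3 CPM in females and 8.98, 43.9 and 95.4 CPM in males. The lowest males lay inside the female range at each age. The log2 fold change of Bcl6 was -2.18 ± 0.29, -2.20 ± 0.27 and -2.04 ± 0.24 (adjusted p 6.2e-09, 6.4e-10 and 5e-10), which is 4.12 to 4.61 times lower in females. Cux2 had 6.32 to 112.1 CPM in females over all ages, and in males 0.0876 to 0.705 CPM without the library M5 of Q80 and 55.1 CPM in that library. The sexes did not overlap in Cux2 at 6 and 10 months, nor at 2 months once that library was left out. Its log2 fold change was 6.38 ± 0.43 at 2 months (adjusted p 3.4e-18, and 7.29 without that library), 7.51 ± 0.18 at 6 months (9e-39) and 7.69 ± 0.19 at 10 months (3.4e-37). In males Cux2 rested on few counts, 3 to 2032 with a median of 12.5 per library, so its variation between males other than M5 is poorly resolved.

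Whether the sex difference changed with age was tested directly. Cux2 was the only member called, with a difference of the log2 fold change of 2.40 ± 0.50 for 10 minus 2 months (adjusted p 0.00093, 2.57% of all genes called) and 2.38 ± 0.47 for 6 minus 2 months (0.00075, 0.912% called). Without the library M5 of Q80 these values were 0.41 (adjusted p 0.48) and 0.24 (0.76), so both calls rest on that library.

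**Figure D2:**
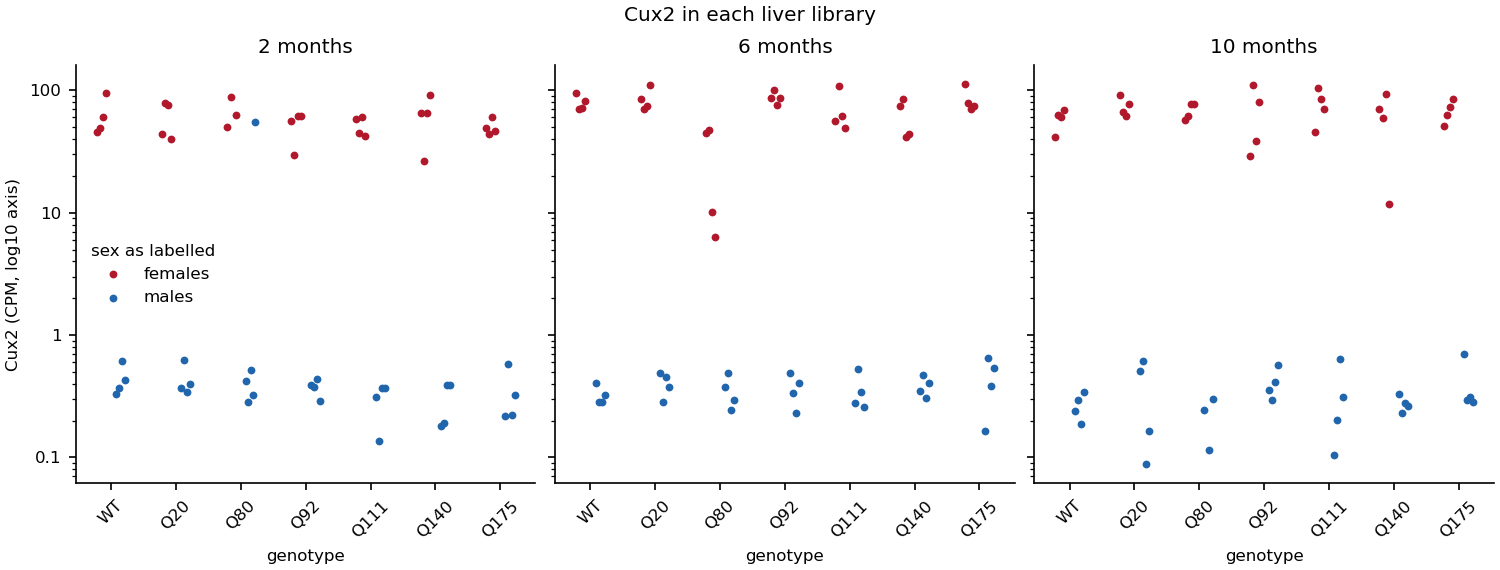
Cux2 in every library by genotype at 2, 6 and 10 months (CPM, log10 axis), females in red on the left of each genotype and males in blue on the right. The Q80 library labelled male M5 at 2 months sits at 55.1 CPM among the females, and females F3 and F4 of Q80 at 6 months sit lowest among the females of that age at 10.04 and 6.32 CPM.

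The wider pathway was read through lists of genes that are no members, with the same fits. The counts stand against the shares of all genes called between the sexes, 57.2%, 60.4% and 56.6% at 2, 6 and 10 months, and are descriptions. Of 12 growth hormone receptor signalling genes, 6 were higher and 0 lower in females at 2 months, 5 higher and 2 lower at 6 months, and 6 higher and 1 lower at 10 months. Prlr, the prolactin receptor, and Lepr, the leptin receptor, were the most sex-biased, at 2.38 ± 0.09 and 2.62 ± 0.16 on the log2 scale at 6 months (edgeR adjusted p 1.8e-30 and 3e-20), and at 2.03 ± 0.12 and 2.09 ± 0.15 at 2 months. The receptor kinase gene Jak2 was not called at 6 months (0.01 ± 0.04), nor was Stat5a (0.10 ± 0.08). Both were named because of their roles in the pathway, after their values were seen. Of 16 tested genes of the IGF system, 5, 6 and 6 were higher and 1, 1 and 1 lower in females at 2, 6 and 10 months. Without the library M5 of Q80, 5 were higher and 2 lower at 2 months, where 58.2% of all genes were called. Igfbp4, an IGF binding protein, was higher in females (0.37 ± 0.04, 0.36 ± 0.04 and 0.26 ± 0.04) and Igf2r, the IGF2 clearance receptor, was lower (-0.13 ± 0.04, -0.20 ± 0.04 and -0.32 ± 0.05), with every adjusted p at most 0.0012.

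Genes listed for their known sex bias in mouse liver, which fixes the direction in advance, served as a check of the sex labels and not as a result. All 16 female-biased genes of the list were called higher in females at each age, with a median log2 fold change of 7.99 (8.69 without the library M5 of Q80), 9.37 and 9.60, and all 12 male-biased genes were called lower, with a median of -5.31 (-5.36 without it), -6.15 and -6.25. Of 14 liver and sex-biased transcription factor genes, 5 were higher and 2 lower in females at 2 months, 5 higher and 4 lower at 6 months and 6 higher and 6 lower at 10 months. Trim24, a nuclear receptor cofactor gene, was higher by 1.78 ± 0.11, 1.98 ± 0.08 and 1.88 ± 0.09, and Esr1, the oestrogen receptor gene, by 1.64 ± 0.10, 1.42 ± 0.11 and 1.68 ± 0.09 (adjusted p at most 9.2e-16). Of 12 nutrition-linked genes, 6 were higher and 2 lower at 2 months, 5 and 1 at 6 months and 4 and 3 at 10 months, with the glucose-6-phosphatase gene G6pc lower by -1.39 ± 0.18, -1.34 ± 0.20 and -1.04 ± 0.28 and the fatty acid oxidation gene Cpt1a higher by 0.35 ± 0.06, 0.41 ± 0.05 and 0.30 ± 0.06. Without the library M5 of Q80, 6 of the 12 were higher and 3 lower at 2 months, where 58.2% of all genes were called.

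Markers of liver cells were also read between the sexes, where 57.2%, 60.4% and 56.6% of all genes were called at 2, 6 and 10 months. The 7 macrophage markers were higher in females for 7, 7 and 6 genes at 2, 6 and 10 months, and their summed level was 174 to 402 CPM in females and 105 to 396 CPM in males at 2 months, 149 to 818 CPM in females and 69 to 340 CPM in males at 6 months, and 160 to 474 CPM in females and 105 to 337 CPM in males at 10 months. Of the 6 endothelial markers 5, 3 and 0 were higher in females. Of the 6 hepatocyte markers 1 was higher in females at each age, Alb, and 4, 3 and 4 were lower. Their summed level had medians of 112000, 114000 and 108000 CPM in females and 89000, 93300 and 92500 CPM in males. That sum is mostly Alb, with a median over all libraries of 75000 CPM against at most 6140 CPM for any other of these markers. At 2 months without the library M5 of Q80, 4 of 7 stellate and fibroblast and 2 of 4 neutrophil markers were higher and 0 lower. Of 5 bile duct markers 1 was higher and 1 lower, and of 5 red cell markers 0 and 1, where 58.2% of all genes were called. No macrophage, endothelial or hepatocyte marker was at 0 in any library, and the part of these cells in the sex differences of the members was not tested.

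Within a genotype, age and sex the livers still differed widely in Cish, Socs2 and Bcl6, and these differences were ordered. After the mean of each genotype, age and sex was removed from log2 CPM, 12 of the 28 pairs of members were correlated over the 167 libraries (permutation of libraries within those groups, adjusted over the 28 pairs). How many pairs of other genes would pass the same test was not computed, so this number is a description. Cish and Bcl6 were the most tightly linked and moved in opposite directions, with Pearson r of -0.75 and Spearman rho of -0.76 (adjusted p 7e-05 each, from an unadjusted permutation p of 1e-05, the smallest that 100000 permutations can give). The value was -0.74 without the 2 libraries farthest from the median of Cish, -0.59 in females and -0.79 in males, and -0.88, -0.77 and -0.55 at 2, 6 and 10 months. By sex and age it was -0.65, -0.77 and -0.29 in females at 2, 6 and 10 months and -0.91, -0.81 and -0.63 in males, and only the value of females at 10 months missed the threshold (adjusted p 0.43).

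The raw levels show the same opposition. Of 84 males, 39 had Cish above and Bcl6 below the medians of their sex (6.31 and 63.4 CPM), 39 had Cish below and Bcl6 above, 3 had both above and 3 had both below. Of 83 females, 32 had Cish above and Bcl6 below their medians (23.1 and 9.92 CPM), 32 had the reverse, 9 had both above and 10 both below, the median library being counted as below. The male with the least Cish, Q80 M2 at 10 months, had 1.45 CPM of Cish and 71.1 CPM of Bcl6, and the male with the most, Q175 M1 at 10 months, had 79.7 CPM of Cish and 15.3 CPM of Bcl6. The female with the least Cish, Q140 F4 at 6 months, had 8.56 CPM of Cish and 23.7 CPM of Bcl6, and the female with the most, Q92 F3 at 6 months, had 68.2 CPM of Cish and 5.01 CPM of Bcl6.

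The relation was also described within ranges of Cish. Here plain log2 CPM were used with no group means removed, and libraries were permuted over all genotypes and ages of a range. In the 42 males below the median of Cish, Bcl6 had 32.9, 81.9 and 114.7 CPM (lowest, median, highest) and its log2 level was not correlated with that of Cish past the threshold (r = -0.13, rho = -0.14, permutation p adjusted over 4 tests 0.42 and 0.36). In the 42 males above it, Bcl6 had 7.16, 17.6 and 86.0 CPM and the correlation was -0.50 (rho -0.45, adjusted p 0.0018 and 0.0063). In the 41 females below the median r was -0.51 (rho -0.48, adjusted p 0.0018 and 0.0063), and in the 41 above it -0.20 (rho -0.33, adjusted p 0.29 and 0.045), so that the rank correlation passed the threshold and r did not. These ranges were cut after the data had been seen, and no difference between them was tested. They also differ in width, in males 1.45 to 6.31 CPM of Cish below the median and 6.31 to 79.7 CPM above it. Their values of r therefore cannot be set against each other.

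**Figure D3:**
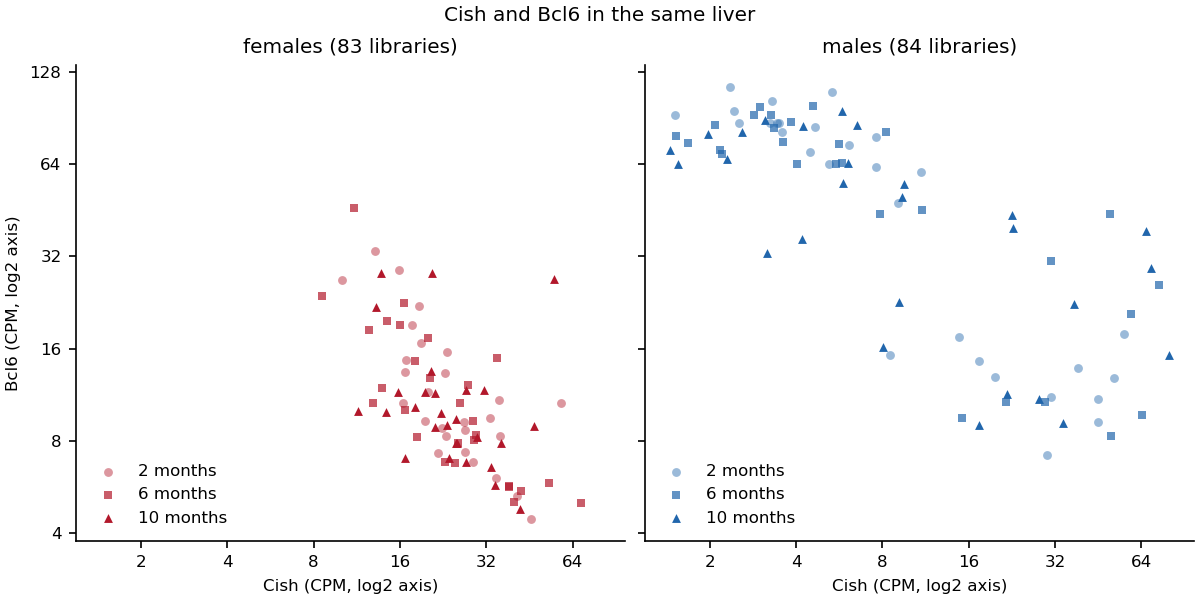
Bcl6 against Cish in the same liver (CPM, log2 axes), 83 females on the left and 84 males on the right, with a marker for each age. Low Cish goes with high Bcl6 in both panels, and males with Cish below 6.31 CPM hold Bcl6 at 32.9 CPM or more.

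The scatter was present inside single groups. Among the 21 male groups, 17 held libraries on both sides of the male median of Cish, 18 of that of Bcl6 and 18 of that of Socs2. WT males at 10 months were a group on the high side of Cish, with 21.8, 22.8, 34.0 and 66.2 CPM, and their Bcl6 was 9.11, 11.4, 38.6 and 39.5 CPM. Q80 males at 10 months were a group on the low side, with 1.45, 1.55 and 3.17 CPM of Cish, 32.9, 64.1 and 71.1 CPM of Bcl6 and 4.40, 4.43 and 4.84 CPM of Socs2. Across the 21 groups in order of mean, the neighbours in that order were apart by more than either SD in 1 of 20 steps for Cish in males, between Q80 at 6 months (3.43 ± 1.33 CPM, SD) and Q80 at 10 months (2.06 ± 0.96 CPM). The ends of that order were 2.06 CPM in Q80 and 36.2 ± 20.8 CPM in WT, both at 10 months.

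With 21 sorted means, neighbours lie close by construction, so the steps describe the order and the ends describe the spread. Ghr ranged over groups from 383.5 ± 32.5 CPM (Q111 females at 6 months) to 480.2 ± 27.6 CPM (WT females at 6 months), and in males from 416.6 ± 61.3 CPM (Q20 at 6 months) to 547.9 ± 32.4 CPM (Q92 at 10 months). Igf1 ranged from 403.9 ± 52.3 CPM (Q140 females at 6 months) to 598.9 ± 27.7 CPM (Q80 females at 10 months), and in males from 342.0 ± 24.1 CPM (Q175 at 6 months) to 507.4 ± 114.7 CPM (Q20 at 10 months). No pair of neighbours was apart by more than either SD for Ghr, Igf1, Igfals, Socs2, Stat5b or Bcl6 in either sex. In Cux2 females a single step was, between Q175 at 2 months (49.97 ± 7.23 CPM) and Q80 at 6 months (27.16 ± 21.99 CPM).

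Socs2 ran with Cish and with the secreted products. Its r with Cish was 0.50 (rho 0.48, adjusted p 7e-05), 0.65 in females and 0.47 in males. Igf1 and Igfals had r of 0.52 (rho 0.51, adjusted p 7e-05), Igfals and Socs2 0.47 (rho 0.45, 7e-05) and Igf1 and Socs2 0.40 (rho 0.37, 0.00017). Bcl6 was negatively correlated also with Igf1 (r = -0.33, adjusted p 0.00052) and Socs2 (-0.30, 0.0048). Igfals and Cish had 0.28 (adjusted p 0.0074), Igf1 and Cish 0.21 (0.024), Igfals and Stat5b -0.28 (0.0036) and Igf1 and Stat5b -0.27 (0.010). Igf1 and Stat5b had -0.51 in females and -0.07 in males. Ghr and Igf1 had 0.33 (adjusted p 0.00051), but 0.08 when FPKM was used in place of CPM (adjusted p 0.46), so this pair depends on how the libraries are scaled. Cux2 in females had 0.47 with Socs2 and 0.46 with Cish, against 0.10 and 0.09 in males. Without the library M5 of Q80 14 of the 28 pairs passed, the added pairs being Ghr with Cish (r = 0.19, adjusted p 0.042) and Socs2 with Cux2 (0.30, 0.0037). No member was correlated with library depth past the threshold (lowest adjusted p 0.15).

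**Figure D4:**
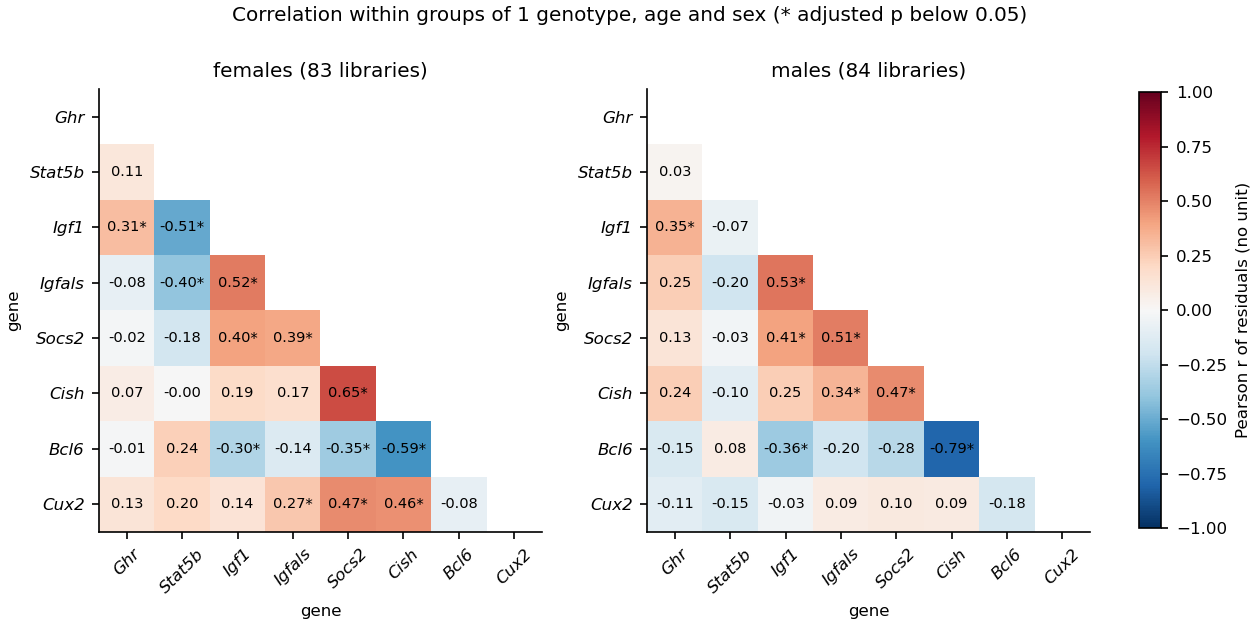
Pearson r between members after the mean of each genotype, age and sex was removed, 83 females on the left and 84 males on the right, colour from -1 to 1 and a star at an adjusted permutation p below 0.05. Cish and Bcl6 have the most negative value in both sexes, -0.59 and -0.79.

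Outside the list, the genes most like each member over the same residuals were named for description, among all genes with a mean of at least 1 CPM. Cish was nearest to Rgs3 (r = 0.81, and 0.77 in females and 0.86 in males), Phlda1 (0.76) and Onecut1 (0.75), the gene of a hepatic transcription factor. Socs2 was nearest to Mapkapk3 (0.66), B4galt1 (0.65) and Arhgap29 (0.64), and Bcl6 to Prox1 (0.55), a hepatocyte transcription factor gene, Tent4a (0.49) and Zbtb20 (0.48). Igf1 and Igfals shared their nearest gene, Nrep (0.62 each); Igf1 was next nearest to Igfals (0.52) and BC025446 (0.52) and Igfals to Tgm1 (0.58) and Lifr (0.57). Ghr was nearest to Akr1c6 (0.70), Mia2 (0.65) and Pon1 (0.65), and Stat5b to Dyrk2 (0.68), Ndst1 (0.65) and Rnf125 (0.65). Cux2 was nearest to Slc22a27 (0.70), Slc22a26 (0.65) and the female-biased cytochrome gene Cyp2a4 (0.64), and without the library M5 of Q80 to Slc6a6 (0.53), Uhrf1bp1l (0.52) and Fam84b (0.52). Without that library Ghr was nearest to Pon1 (0.70), Akr1c6 (0.69) and Agmo (0.68). Igf1 was then next nearest after Nrep to Keg1 (0.54) and BC025446 (0.53), and no longer to Igfals. Klhl25 (0.49) took the place of Zbtb20 for Bcl6, and Nr5a2 (0.65) that of Ndst1 for Stat5b.

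The longest repeat left the axis without a call. In Q175 against Q20, 0 of 8 members passed edgeR's adjusted p of 0.05 at 2, 6 or 10 months, while 0.258%, 10.2% and 0.931% of all genes did. At an unadjusted p of 0.05, 2, 1 and 2 members passed, against 14.1%, 25.9% and 13.1% of all genes, and DESeq2 and limma called 0 at each age.

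In Q175 the secreted products were lowest relative to Q20 at 10 months. Igfals had 83.7 to 100.9 CPM in Q175 females and 44.9 to 78.1 CPM in Q175 males, against 91.3 to 115.0 CPM in Q20 females and 71.0 to 97.8 CPM in Q20 males, with overlap in each sex. Its log2 fold change was -0.38 ± 0.12 (adjusted p 0.098, 95% interval -0.61 to -0.15), and without Q175 male M1 it was -0.46 (adjusted p 0.037), which is a call. Igf1 had 449.1 to 507.0 CPM in Q175 females and 321.4 to 431.6 CPM in Q175 males, against 466.9 to 509.1 CPM in Q20 females and 362.3 to 638.0 CPM in Q20 males, a log2 fold change of -0.28 ± 0.11 (adjusted p 0.21). Ghr was at -0.16 ± 0.08 and Stat5b at -0.01 ± 0.10 at that age. At 6 months Stat5b was the member nearest to a call, at -0.23 ± 0.09 (adjusted p 0.080), and without Q175 male M1 it was -0.29 (0.026). At 2 months Igf1 was at 0.15 ± 0.07, Igfals at 0.16 ± 0.12 and Bcl6 at 0.71 ± 0.51. The other lines were also below the same Q20 libraries at 10 months, with no call. Igfals was at -0.28 ± 0.12 (Q80), -0.18 ± 0.11 (Q92), -0.36 ± 0.12 (Q111) and -0.12 ± 0.11 (Q140). Igf1 was at -0.09 ± 0.11, -0.04 ± 0.11, -0.12 ± 0.11 and -0.12 ± 0.11 in the same order.

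Cish had wide errors in the comparisons with Q20. In Q175 against Q20 its log2 fold change was -1.42 ± 0.57 at 2 months (adjusted p 0.24), -0.70 ± 0.68 at 6 months (0.56) and -0.30 ± 0.57 at 10 months (0.88). Q175 males at 2 months had 1.52 to 5.20 CPM of Cish, against 2.54 to 55.4 CPM in Q20 males, and Q175 females 16.8 to 26.8 CPM against 22.3 to 34.4 CPM in Q20 females, so both sexes overlapped. At 2 months the other lines had -0.35 ± 0.55 (Q80), -0.54 ± 0.55 (Q92), -1.07 ± 0.56 (Q111) and -0.31 ± 0.55 (Q140) against the same Q20 libraries. At 10 months they had -1.32 ± 0.63 (Q80), -1.13 ± 0.59 (Q92), -1.14 ± 0.59 (Q111) and -0.82 ± 0.58 (Q140), again against shared Q20 libraries. No Cish value was called in any line at any age.

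Against repeat length itself no member was called. The slope over the 6 knock-in lines called 0 of 8 members at 2, 6 and 10 months with edgeR, where 0.266%, 5.67% and 0.25% of all genes were called, and DESeq2 and limma called 0. At an unadjusted p of 0.05 there were 1, 1 and 2 members, against 15.3%, 21.1% and 10% of all genes. At 10 months the log2 change per 100 repeats was -0.17 ± 0.06 for Igf1 and -0.19 ± 0.07 for Igfals (adjusted p 0.32 each), at 6 months -0.13 ± 0.06 for Stat5b (0.21), and at 2 months -0.71 ± 0.34 for Cish (0.31), while Cux2 at 2 months was at -0.73 ± 0.56, and at -0.16 ± 0.13 without the library M5 of Q80. When Q20 was left out of the slope, Stat5b at 10 months was called at -0.40 (adjusted p 0.021). Whether the slope differed between females and males was tested for each member and called for 0 at each age with edgeR, DESeq2 and limma, where 0%, 0.213% and 0.173% of all genes were called and 1, 0 and 0 members passed an unadjusted p of 0.05, against 5.17%, 12.4% and 15.1% of all genes.

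Among the other lines 4 member values passed the threshold, each in a single line and age. The remaining 8 comparisons of Q80, Q92, Q111 or Q140 with Q20 called 0 members with edgeR, DESeq2 and limma. Of all genes, edgeR called 0% in Q92, Q111 and Q140 at 2 months, 0.678% in Q111 and 4.91% in Q140 at 6 months, and 0.00637%, 0.962% and 0% in Q80, Q111 and Q140 at 10 months. At an unadjusted p of 0.05 those comparisons held 1, 0 and 0 members (6.8%, 5.76% and 13% of all genes) at 2 months, 1 and 1 (17% and 20.6%) at 6 months, and 2, 2 and 1 (6.41%, 12% and 3.58%) at 10 months. Cux2 was higher in Q80 than in Q20 at 2 months (log2 fold change 3.42 ± 0.72, edgeR adjusted p 0.018, 0.0991% of all genes called). Q80 had 50.5, 63.2 and 88.3 CPM in females and 0.283, 0.326, 0.419, 0.515 and 55.1 CPM in the libraries labelled male, and without the library with 55.1 CPM the value was 0.11 (adjusted p 0.895). Cux2 was lower in Q80 than in Q20 at 6 months (-1.39 ± 0.30, adjusted p 0.0059, 8.24% called). Q80 females had 6.32, 10.04, 45.01 and 47.3 CPM, against 70.3, 74.1, 85.7 and 111.6 CPM in Q20 females, with no overlap, while males had 0.242 to 0.489 CPM in Q80 and 0.284 to 0.489 CPM in Q20. In females alone it was -1.66 (adjusted p 0.018) and in males alone -0.19 (0.85). Without the Q80 females F3 and F4 it was -0.68 (0.056), and it was -1.16 (0.17) when females F1, F3 and F4 of Q20, which had high macrophage markers in earlier results, were left out.

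Stat5b was higher in Q92 than in Q20 at 10 months (0.40 ± 0.10, adjusted p 0.020, 3.72% of all genes called). Q92 had 52.6, 74.6, 75.5 and 76.2 CPM in females and 64.5, 66.9, 68.2 and 72.8 CPM in males, against 50.5, 52.6, 55.5 and 60.9 CPM in Q20 females and 44.0, 44.95, 47.4 and 60.7 CPM in Q20 males. The males did not overlap and the females overlapped through a single Q92 library. Without the libraries with Krt19 above 10 CPM it was 0.31 (adjusted p 0.20), and Krt19 itself was called higher in Q92 at that age (2.40 ± 0.72), while the summed level of the 5 bile duct markers was 43.8 to 85.6 CPM in Q92 and 38.2 to 75.0 CPM in Q20. That sum is mostly Spp1, with medians over all libraries of 40.8 CPM for Spp1 and 0.783 to 2.87 CPM for Krt7, Krt19, Epcam and Sox9. None of these markers was at 0 in any library, and their part in the result was not tested. The call was also lost without Q20 M3, Q92 F1, Q92 F3 or Q92 F4. Ghr was higher in Q92 than in Q20 at 6 months (0.17 ± 0.06, adjusted p 0.031, 16.6% called), with 409.3 to 455.4 CPM in Q92 females and 461.7 to 523.4 CPM in Q92 males, against 344.5 to 425.6 CPM in Q20 females and 345.4 to 494.6 CPM in Q20 males. In log2 FPKM it was 0.07 (adjusted p 0.44), and it was lost without Q20 F4, Q20 M2 or Q92 M4 (adjusted p 0.060, 0.076 and 0.050).

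**Figure D5:**
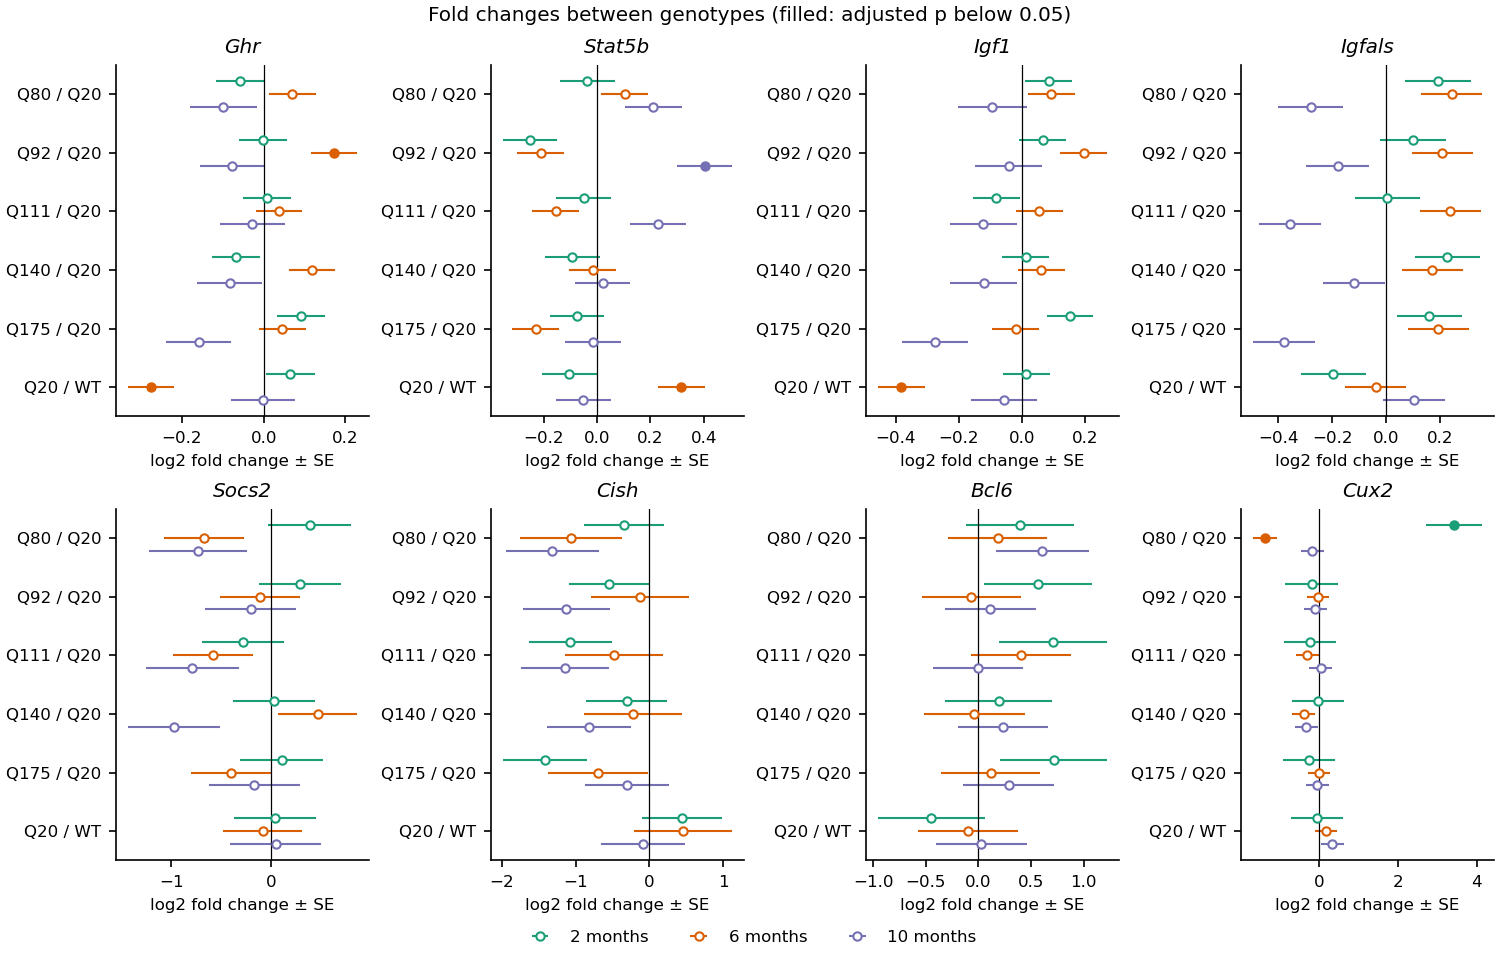
Log2 fold change with its SE of each line over Q20, from Q80 at the top to Q175, and of Q20 over WT at the bottom, at 2, 6 and 10 months, filled where the adjusted p is below 0.05. Of the line comparisons 4 points are filled, Cux2 in Q80 at 2 and 6 months, Ghr in Q92 at 6 months and Stat5b in Q92 at 10 months, and Ghr, Igf1 and Stat5b are filled for Q20 over WT at 6 months.

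Between the short-repeat line and WT, members were called at 6 months. In Q20 against WT, 3 of 8 members passed at 6 months, where 31.3% of all genes were called, and 0 at 2 and 10 months, where 0% and 0.00637% were called. At 2 and 10 months 0 members passed an unadjusted p of 0.05, against 3.14% and 2.05% of all genes, and DESeq2 and limma called 0. Igf1 had 408.1 to 480.9 CPM in Q20 females and 327.9 to 390.0 CPM in Q20 males, against 558.4 to 579.8 CPM in WT females and 437.4 to 496.6 CPM in WT males. Neither sex overlapped in Igf1, and its log2 fold change was -0.38 ± 0.08 (adjusted p 9.5e-05). Ghr had 344.5 to 425.6 CPM in Q20 females and 345.4 to 494.6 CPM in Q20 males, against 451.3 to 517.8 CPM in WT females and 459.9 to 539.1 CPM in WT males, a log2 fold change of -0.28 ± 0.06 (0.00018). Only the males overlapped in Ghr. Stat5b was higher in Q20 (0.32 ± 0.09, adjusted p 0.0044), with 67.2 to 88.6 CPM in Q20 males and 49.9 to 66.6 CPM in WT males, and with overlap in females.

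These 3 values sit beside a wide shift of that comparison. In log2 FPKM Igf1 was at -0.12 (adjusted p 0.17) and Ghr at -0.11 (0.16), neither called, while Stat5b was at 0.42 (0.00065). The same comparison called 6 of 7 macrophage markers higher (median log2 fold change 0.79) with a summed level of 203 to 818 CPM in Q20 and 123 to 410 CPM in WT, and 6 of 6 endothelial markers higher (median 0.92) with 162 to 415 CPM in Q20 and 88.7 to 183 CPM in WT. None of these markers was at 0 in any library, and the summed hepatocyte markers, mostly Alb, had 87700 to 124000 CPM in Q20 and 76700 to 104000 CPM in WT. When females F1, F3 and F4 of Q20 were left out, Igf1 was at -0.41 (adjusted p 0.00074), Ghr at -0.28 (0.0024) and Stat5b at 0.32 (0.020). Library name style cannot be told apart from genotype here.

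The pathway lists were read against the same backgrounds. In Q20 against WT at 6 months 31.3% of all genes were called, and the list counts stand against that share as descriptions. Of 12 receptor signalling genes 5 were higher and 1 lower, among them Sirpa (0.72 ± 0.16) and Ptpn1 (0.41 ± 0.10), which encode a receptor and a phosphatase that act on this kind of signalling. Of 16 IGF system genes 4 were higher, among them the receptor genes Igf1r (1.06 ± 0.21) and Igf2r (0.30 ± 0.07) and the adaptor genes Irs2 (0.75 ± 0.23) and Irs1 (0.56 ± 0.19). Of the 16 female-biased genes 5 were lower, among them Sult2a2 (-1.07 ± 0.30) and Sult2a1 (-1.23 ± 0.36). In Q175 against Q20 at 6 months, with 10.2% of all genes called, 2 of 12 receptor signalling genes were lower, Sirpa (-0.69 ± 0.16, adjusted p 0.0049) and Ptpn6 (-0.28 ± 0.08, 0.025), and 3 of 16 IGF system genes, Insr (-0.31 ± 0.06, 0.00099), Igf1r (-0.67 ± 0.21, 0.031) and Irs2 (-0.71 ± 0.23, 0.035). Of the 7 macrophage markers 6 were lower as well, with a summed level of 69.0 to 348 CPM in Q175 and 203 to 818 CPM in Q20, and their part in these values was not tested. Both comparisons share the Q20 libraries of 6 months. Sirpa, Igf1r and Irs2, called higher in Q20 than in WT and lower in Q175 than in Q20, are therefore not independent results. The lists were not read without females F1, F3 and F4 of Q20.

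In the comparisons that include the 6-month libraries 4 members were called, but the knock-in libraries of 6 months carry another name style than those of 2 and 10 months, so age and name style cannot be told apart there. At 6 against 2 months Igfals (log2 fold change 0.20 ± 0.05, adjusted p 0.00015) and Stat5b (0.14 ± 0.04, 0.0047) were higher, and Ghr (-0.09 ± 0.03, 0.0055) and Igf1 (-0.14 ± 0.04, 0.00077) lower, where 48.2% of all genes were called. At 10 against 6 months each of the 4 was called in the opposite direction, Igfals at -0.31 ± 0.05 (adjusted p 9.1e-09), Stat5b at -0.18 ± 0.04 (0.00011), Ghr at 0.10 ± 0.03 (0.0016) and Igf1 at 0.15 ± 0.04 (0.00026), where 51.5% were called. The 2 comparisons share the 6-month libraries. At 10 against 2 months edgeR called 0 members and DESeq2 and limma 0, where 24.4% of all genes were called, with Igfals and Cux2 past an unadjusted p of 0.05 (-0.11 ± 0.05 and -0.53 ± 0.25, against 35.5% of all genes). Without the library M5 of Q80 the Cux2 value was 0.15 ± 0.11 (adjusted p 0.35), so its direction rests on that library, and at 6 against 2 months Cux2 was -0.39 ± 0.24 with it and 0.22 ± 0.11 without it (adjusted p 0.18 and 0.091). With libraries of 1 name style edgeR called 0 members at 6 against 2 and at 10 against 6 months, and Ghr, Igf1 and Stat5b turned direction. The 6-month side of that fit is the 8 WT libraries alone, in place of 56, so a lost call cannot be told apart from lost precision. The fit in WT alone uses the same 6-month libraries, so the same limit holds and the 2 fits are not separate checks. In WT alone, whose libraries share a name style at all ages, edgeR called 0 members between any ages: at 6 against 2 months Ghr was at 0.15 (adjusted p 0.16), Igf1 at 0.19 (0.20), Igfals at 0.02 (0.96) and Stat5b at -0.21 (0.12). In log2 FPKM the calls of Igfals and Stat5b were kept and those of Ghr and Igf1 were not.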

How the data were processed

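Liver polyA RNA of 167 mice was sequenced on Illumina instruments and base-called with CASAVA 1.8.2, per the submitters' processing notes. Deposited by the authors were expected counts for each gene, of which 14.1% of values are not whole, and FPKM, which scale counts by library size and gene length. For the aligner, quantifier and genome build: not given in the sources used here. Gene identifiers were paired with GENCODE M21 symbols for 37607 of 39179. Groups and sex came from the labels. The members and the gene lists were chosen with earlier results of these data known. The genes named are the 8 members, the 3 genes most like each, up to 4 genes of each list with the smallest p past the threshold in a comparison described, and others where said.

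Counts were rounded, filtered with filterByExpr, scaled by TMM and tested with edgeR 4.0.16 (quasi-likelihood, R 4.3.3) in a fit of 7 genotypes and sex per age, with p adjusted over all tested genes by Benjamini and Hochberg's method, and 0.05 as the threshold. Slopes used the 6 knock-in lines, and age comparisons all libraries. CPM are rounded counts per 1000000 counts of the library, with TMM library sizes for members and plain totals for marker levels. Intervals of fold changes are 95% from 1.96 SE. Alternatives used DESeq2 1.42.0, RLE scaling, no filter, limma 3.58.1 on log2(FPKM + 0.1) and log2(FPKM + 1), each sex alone, 2-group fits, a replicate block and left-out libraries (88 fits leaving out 1 library). Correlations used log2 CPM with a prior count of 2 and 100000 permutations (SciPy 1.17.1, seed 1, Python 3.11.15). Those within ranges of Cish used plain log2 CPM, permuted over all libraries of a range. The fit was tested on simulated data. Depth limits precision: a member with few counts, such as Cux2 in males, has the widest counting error. Replicate numbers are shared between groups. Whether they pair libraries was not decided, and they served only as names.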

Additional observations from a re-analysis of the deposited data

Results flagged for a closer look

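In groups of 4 to 10 libraries of a genotype, age and sex, 28 of 320 member values held a library far from the others by a gap test at the 95% level, 8.75%, where chance gives about 1 in 20. Values are CPM, each beside the range of the other libraries of its group. For Ghr these were Q111 F1 at 10 months with 497.9 (others 419.5 to 428.5), Q140 M3 at 10 months with 627.8 (491.2 to 509.7), Q20 F1 at 10 months with 377.7 (461.8 to 470.3), Q92 F2 at 6 months with 455.4 (409.3 to 416.0) and Q92 F2 at 10 months with 470.6 (355.4 to 368.2). For Igfals it was Q80 F3 at 6 months with 108.8 (125.6 to 128.4). For Stat5b they were Q140 F4 at 6 months with 53.58 (64.22 to 65.27), Q175 M1 at 6 months with 84.47 (57.93 to 59.6), Q80 M3 at 2 months with 95.85 (50.7 to 60.97) and Q92 F2 at 10 months with 52.56 (74.55 to 76.16).

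For Socs2 the libraries were Q111 M2 at 10 months with 11.95 (2.088 to 3.487), Q140 F1 at 2 months with 36.14 (20.73 to 21.78), Q140 M1 at 2 months with 32.53 (4.615 to 7.383), Q175 M2 at 2 months with 32.85 (5.507 to 9.453) and Q20 M3 at 6 months with 35.94 (6.451 to 7.894). For Cish they were Q111 F3 at 2 months with 35.44 (15.85 to 18.61), Q111 M1 at 6 months with 58.8 (2.165 to 7.841), Q175 M3 at 6 months with 21.6 (2.084 to 3.843), Q175 M1 at 10 months with 79.68 (2.297 to 5.804), WT M2 at 2 months with 45.16 (2.349 to 9.07) and WT M1 at 6 months with 64.1 (5.504 to 8.265).

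For Bcl6 the libraries were Q111 F3 at 6 months with 46.02 (7.883 to 12.8), Q140 M4 at 6 months with 74.63 (8.268 to 10.71), Q140 F3 at 10 months with 28.31 (6.997 to 9.923) and Q175 M3 at 6 months with 10.69 (84.12 to 88.07), the last in a library that also had the highest Cish of its group. For Cux2 they were Q175 M1 at 10 months with 0.7047 (0.2842 to 0.3119), Q80 M5 at 2 months with 55.09 (0.2829 to 0.5146) and Q92 F2 at 2 months with 29.8 (56.66 to 62.18). The sex difference of Cux2 also differed between ages, by 2.4 (10 minus 2 months) and 2.38 (6 minus 2 months) on the log2 scale by the interaction test of edgeR, and by 0.41 and 0.24 without Q80 M5.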

How the results depend on the processing

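Of 357 counts of members past the threshold under an alternative, 310 stayed within 1.5 times the value reported and 47 did not, and of 208 that leave out 1 library 12 did not. Counts of 0 that stayed 0 are among the 310, so that number does not show how stable the calls are. Fits leaving out 1 library aside, 134 single values of members or pairs lost a call and 22 gained a call, with direction kept. A further 19 turned direction with a call on either side, and 2941 did none of these. For 10 against 6 months (4 members) the count was 2 in both limma fits, 0 with libraries of 1 name style and 0 in WT alone; for 6 against 2 months (4) it was 2 in females alone, males alone and both limma fits, and 0 with 1 name style and in WT alone. It was 1 for the slope at 10 months without Q20 (0), 1 for Q20 against WT at 6 months in both limma fits (3) and 1 for Q80 at 10 months in males alone (0). For Q80 at 2 months (1) it was 0 in each sex alone, both limma fits, the 2-group fit, the replicate block and without M5, and for Q80 at 6 months (1) 0 in males alone, the 2-group fit and without the Q20 or Q80 females named in the report. For Q92 at 10 months (1) it was 0 in each sex alone and without the Krt19 libraries, and for Q92 at 6 months (1) 2 with DESeq2, RLE and without the Q80 females, and 0 in males alone and without the Q20 females. The change of the sex difference (1) was 0 in both limma fits and without M5. Of 28 pairs of members, 12 over all libraries, the count was 6 at 2 months, 3 at 6 months, 7, 2 and 1 in females and 1, 2 and 5 in males at 2, 6 and 10 months. Leaving out 1 library gave 0 to 0 for Q175 at 2 months, 0 to 1 at 6 and 10 months, 3 to 3 for Q20 against WT at 6 months, 0 to 1 for Q80 at 2 months and Q92 at 10 months, 1 to 1 for Q80 at 6 months and 0 to 2 for Q92 at 6 months. The direction turned for Ghr in 10 against 6 months (-0.0779 with 1 name style, -0.00797 in WT), Igf1 (-0.0244 and -0.0243 in the limma fits, -0.0850 with 1 name style) and Stat5b (0.0499 with 1 name style), in 6 against 2 months for Ghr (0.0925, 0.15), Igf1 (0.10, 0.19) and Stat5b (-0.10, -0.21), each with 1 name style and in WT, and for Ghr between the sexes at 6 months (0.0108 and 0.0107 in the limma fits). Pairs that turned were Igf1 with Stat5b (0.018 at 6 months, 0.077 and 0.42 in males at 2 and 6 months), Ghr with Igf1 (-0.15) and Igf1 with Cish (-0.0682), both in males at 6 months. The causes were not tested, and the fits with 1 name style and in WT alone share their 6-month libraries. The share of all genes called in each alternative fit is not given beside the counts in this section. With the replicate block the Cux2 value of Q80 was 0.15 at 2 months (adjusted p 0.85), since the number M5 belongs to 1 library at that age, and -1.58 at 6 months (0.0025). Same-numbered libraries had a median correlation of 0.0383 over 48 pairs, 17 above 0.1. Libraries with unlike numbers were not compared, so these values cannot decide whether the numbers pair libraries. Each sex alone for ages, 1 name style, the Q80 females and the correlations within sex were chosen after seeing the data. Depth limits Cux2 in males, with a median of 12.5 counts.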
